A study of Oryctolagus cuniculus with 9 samples.

Results

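The genes described here encode the proteins of the cytosolic ribosome, the machine that translates mRNA outside mitochondria. They were taken from the deposited expression table by name: rows named RPL or RPS and a number, with the suffixes A, L or X where present, the stalk proteins RPLP0 to RPLP2, and RPSA. The kinases named RPS6K were left out, and the row of highest mean was kept where a name occurred more than once. The rule matched 66 rows of 19511 loci and gave 65 genes, 40 named for the large subunit (60S) and 25 for the small subunit (40S). Of these, 60 are the standard ribosomal proteins and 5 are paralogs (RPL3L, RPL7L1, RPL22L1, RPL26L1 and RPS27L), genes that arose from a standard member and carry its name with an added L or L1.

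RNA was sequenced from primary rabbit parathyroid cells in 3 groups of 3 libraries. Control cells, labelled WT and Day0, were untreated. H/R cells, labelled IRI, were kept hypoxic for 6 h and then reoxygenated for 6 h, which imitates loss and return of blood flow. GA+H/R cells, labelled IRI with GA, received 1200 uM gallic acid, a plant phenolic acid, for 24 h and then the H/R treatment. No label tells whether a library is its own animal or culture, so p-values measure the spread between libraries, which may be technical. They also do not say whether H/R cells spent the 24 h of pretreatment in culture without gallic acid.

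A ribosome holds a single copy of most of its proteins, and cells make these proteins in matched amounts, so their mRNAs are usually abundant and move together. Their mRNAs are short and begin with a run of pyrimidines through which mTOR and the RNA-binding protein LARP1 control their stability and translation. Surplus RPL5 and RPL11 can bind MDM2 and release p53, a known link between ribosome assembly and stress. Mammalian genomes carry many processed copies of these genes, and reads can be split between a gene and its copies.

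Expression is given as FPKM, a fragment number corrected for transcript length and for the fragments of the library, and no depth was given. The sum of FPKM over all loci lay between 1648012 and 1696488 in control, 730117 and 752065 in H/R, and 467499 and 516231 in GA+H/R. On the deposited scale the median locus therefore shifted in log2 units by -1.25 between control and H/R, by -0.50 between H/R and GA+H/R, and by -1.77 from control to GA+H/R. Changes below are therefore relative to the median locus, except where the deposited scale is named. Levels in FPKM are always the deposited ones. Rose and fell are used for adjusted p-values under 0.05 in limma (Benjamini and Hochberg over all loci tested). In bulk RNA, fewer cells of a type and less RNA per cell cannot be told apart. The defining marker PTH was at 0.123, 0.0240 and 0.0172 FPKM on average in control, H/R and GA+H/R, so the labelled cell type is not borne out by its hormone. The 13 parathyroid markers in the table, of 15 listed, summed to between 18.4 and 35.2 FPKM in control, 8.41 and 9.18 in H/R and 4.49 and 4.98 in GA+H/R. Among them GATA3, EPCAM, KL, TBX1, CHGA, KRT8 and KRT18 averaged under 1 FPKM in every group. The control sum therefore rests mostly on markers not named here, and 4 of the 13 were high enough to be tested. The 10 fibroblast markers in the table, of 11 listed, summed to between 128832 and 193230, 29429 and 29499, and 13933 and 14090 (FPKM), and the 9 macrophage markers, of 12 listed, to between 4.30 and 54.8, 17.2 and 17.5, and 111 and 119. These sums move with the groups, and their part in the results below was not tested. Control 1 stood apart from the other controls, with the lowest macrophage sum.

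The summed FPKM of the 65 genes did not fall with the libraries' totals. It was 32759, 31961 and 30493 in the controls, 32739.9, 32772 and 32634 in H/R, and 36287, 36367 and 36389 in GA+H/R. The control and H/R ranges overlapped, and all GA+H/R libraries lay above both. As a share of a library's summed FPKM, these genes made up 1.99%, 1.88% and 1.82% in the controls, 4.35%, 4.49% and 4.35% in H/R, and 7.03%, 7.78% and 7.13% in GA+H/R, with no overlap between groups. The ratio of the summed 60S to the summed 40S proteins was 1.74 ± 0.0162, 1.68 ± 0.00742 and 1.67 ± 0.00802 (SD, n = 3). It was higher in every control library than in every H/R library, and the H/R and GA+H/R libraries overlapped. The sums rest on the most abundant rows, such as RPLP0 at 3994 ± 60.3 FPKM in control. Libraries of a group agreed closely on these genes: the median coefficient of variation over the 60 standard members was 4.36% (control), 1.83% (H/R) and 1.99% (GA+H/R), against 13.2%, 8.36% and 11.3% over the other loci tested.

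**Figure D1:**
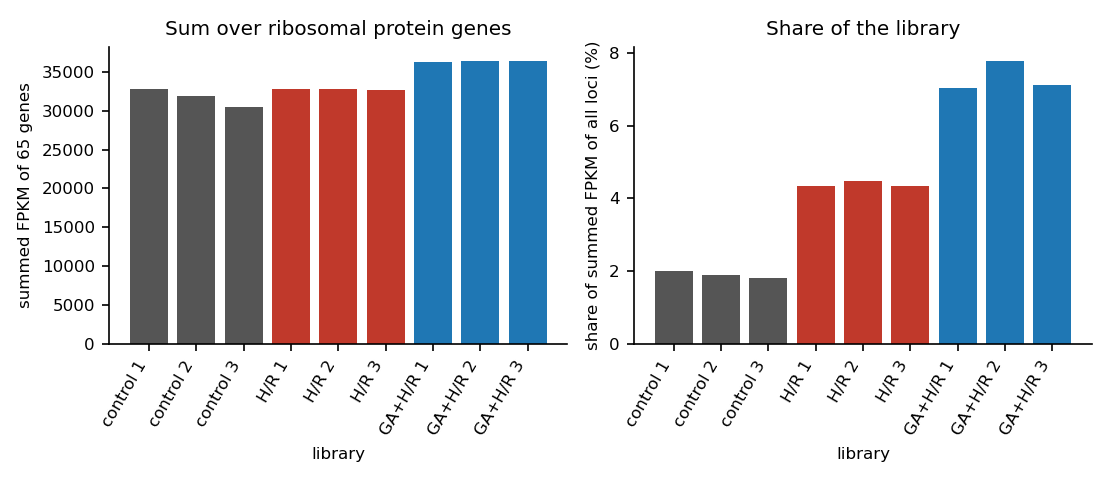
The left panel plots the summed FPKM of the 65 ribosomal protein genes in each of the 9 libraries, and the right panel the same sum as a percentage of the FPKM of all loci (bars: single libraries; grey control, red H/R, blue GA+H/R). The sum lies between 30493 and 36389 in all libraries, while the share is at most 1.99% in control and at least 7.03% in GA+H/R.

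Hypoxia and reoxygenation were compared with control first. Relative to the median locus, 62 of the 64 tested members rose, 0 fell and 2 (RPL21 and RPS27L) did not pass, with a median log2 change of 1.48. Over all 10956 loci tested 29.2% rose and 28.4% fell, with a median of 0.00. The median of the members was 0.08 on the deposited scale, where 27 rose, 22 fell and 15 did not pass, while over all loci 4.18% rose and 86.0% fell. The members thus went both ways on that scale, from -1.59 (RPS27L) to 1.47 (RPL35). Relative to the median locus all H/R libraries lay above all controls for 63 of the 65 genes and below them for 1. In deposited FPKM 32 lay above, 22 below and 11 overlapped. How many of all loci separated in this way was not counted, so these numbers have no background beside them. RPL3L, the paralog of RPL3 known from muscle, was the only member that failed the filter on low values, with 0.220 FPKM as its highest library.

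The 60S and 40S proteins had similar medians. Of 36 standard 60S members tested, 35 rose and 1 did not pass, with a median of 1.54, and of 24 standard 40S members all 24 rose, with a median of 1.51. Their medians were 0.26 and 0.07 as deposited. The changes ranged from 0.74 (RPL34) to 2.85 (RPL35) among the 60S proteins and from 0.99 (RPS27) to 2.30 (RPS23) among the 40S proteins, so the spread lay within each subunit. In 55 of 64 members the change was larger than that of 90% of all loci tested.

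**Figure D2:**
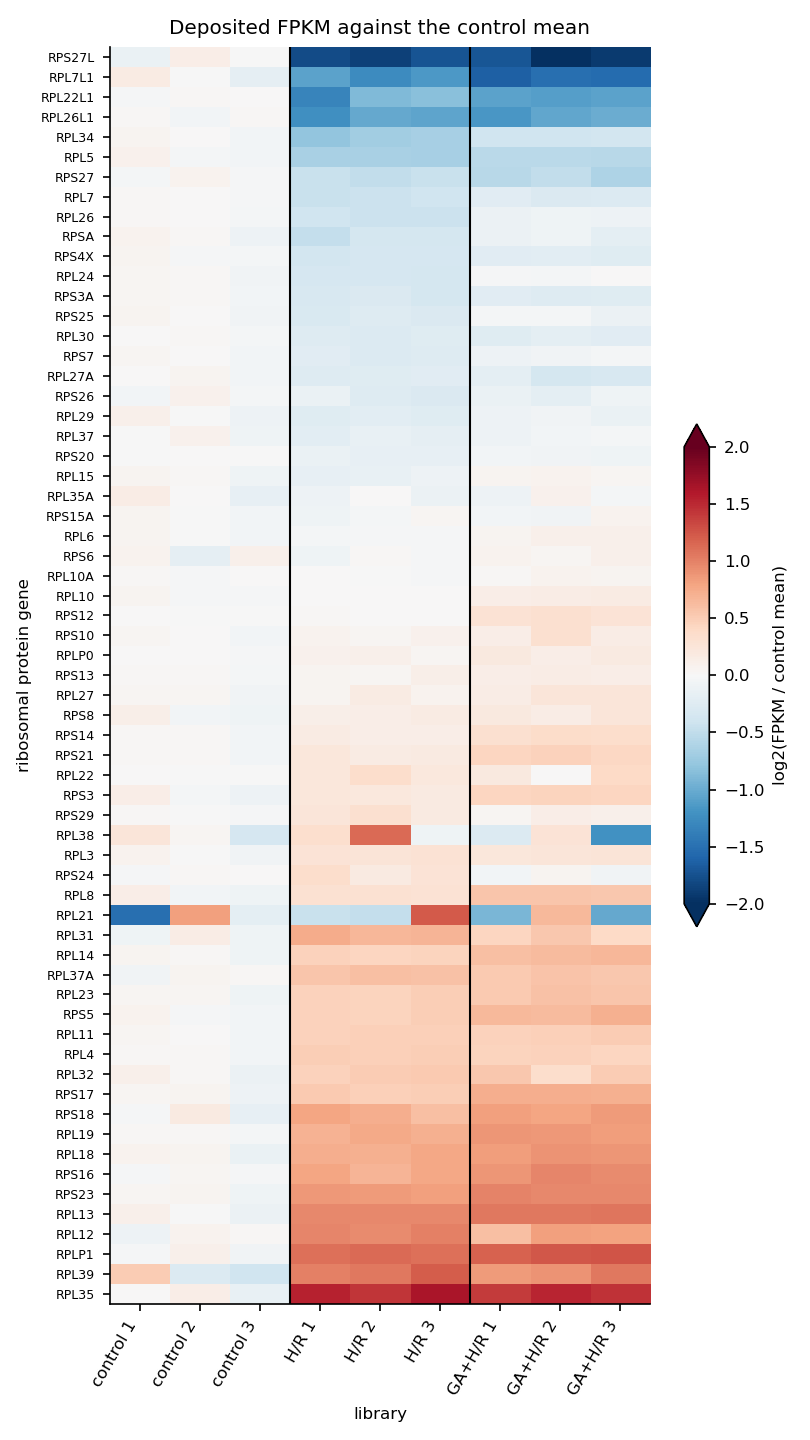
Rows are the tested ribosomal protein genes except 1, and columns are libraries, coloured by log2 of the deposited FPKM over the control mean (scale from -2 to 2, values beyond it take the end colours), with rows ordered by the H/R change on the deposited scale. The paralogs RPS27L, RPL7L1, RPL22L1 and RPL26L1 form the blue end at the top, RPL35 the red end at the bottom, and RPL21 changes colour within every group.

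RPL35, a 60S protein near the exit of the nascent peptide, had the largest change. It was at 15.3, 16.6 and 13.7 FPKM in the controls, 44.1, 40.7 and 47.1 in H/R, and 40.2, 43.5 and 41.3 in GA+H/R. Every library of the stressed groups lay above every control, and the H/R and GA+H/R values overlapped. The log2 change in H/R was 2.85 ± 0.09 (SE, adjusted p = 2.51e-08), and 1.47 on the deposited scale. RPL39, a small protein that lines the same exit tunnel, was at 39.2, 22.8 and 20.8 FPKM in the controls, 55.7, 57.4 and 63.7 in H/R, and 49.96, 51.4 and 57.6 in GA+H/R. Control 1 was the highest control, and the groups still did not overlap between control and H/R (log2 change 2.53 ± 0.17, adjusted p = 3.70e-06, and 1.12 deposited).

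The stalk is the flexible arm of the 60S subunit that recruits elongation factors. RPLP1, one of its acidic proteins, was at 209.7, 229 and 204 FPKM in the controls, 460.2, 469 and 459 in H/R, and 488, 508 and 512 in GA+H/R. The 3 groups did not overlap, and the log2 change in H/R was 2.56 ± 0.06 (SE, adjusted p = 7.17e-09, and 1.11 deposited). RPLP0, which anchors the stalk, was the most abundant named row, at 4029.6, 4028 and 3925 FPKM in the controls, 4252, 4265 and 4099 in H/R, and 4565, 4377 and 4539 in GA+H/R. Its change was 1.53 ± 0.05 against the median locus (adjusted p = 1.91e-08) and 0.07 on the deposited scale (adjusted p = 0.0724). RPL12, which sits at the base of the stalk, was at 191, 216 and 209.5 FPKM in the controls, 404, 395 and 412 in H/R, and 313, 365 and 361 in GA+H/R. It was highest in H/R and lowest in control, with no overlap between the groups (log2 change in H/R 2.43 ± 0.09, adjusted p = 7.74e-08, and 0.97 deposited). A row named RPLP2 was not among those the rule matched.

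Other members near the top were RPL13, a 60S protein, at 2.42 ± 0.04 (SE, adjusted p = 1.80e-09) and RPS23, a 40S protein of the decoding centre, at 2.30 ± 0.05 (adjusted p = 4.15e-09). As deposited, they were at 0.96 and 0.85. Of the other most abundant rows, RPL8 was at 1653, 1455 and 1414 FPKM in the controls, 1862, 1858 and 1844 in H/R, and 2206, 2215 and 2198 in GA+H/R. RPS3, a 40S protein at the mRNA entry, was at 1877, 1675 and 1599, then 2006, 1988 and 1948, then 2315, 2351 and 2307 FPKM. Both were ordered control, H/R, GA+H/R without overlap, and rose in H/R by 1.76 and 1.67 relative to the median locus (0.30 and 0.21 deposited).

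At the other end, RPL34, a 60S protein, was at 322, 314 and 299 FPKM in the controls, 181, 193 and 196 in H/R, and 237, 237 and 240.4 in GA+H/R. It rose by 0.74 ± 0.05 (SE, adjusted p = 3.20e-06) relative to the median locus and fell by 0.71 on the deposited scale (adjusted p = 1.12e-06). RPL5, which carries 5S rRNA into the ribosome and is a ligand of MDM2, was at 356, 326 and 320.4 FPKM in the controls, 213, 213 and 211 in H/R, and 229.9, 229 and 227 in GA+H/R. Its change was 0.80 ± 0.04 (SE, adjusted p = 6.11e-07) and -0.65 on the deposited scale (adjusted p = 1.84e-06). RPL11, its partner in that complex, was chosen after its values were seen and stood at 249 ± 8.04, 345 ± 1.66 and 346 ± 5.83 FPKM (SD, n = 3), with a change in H/R of 1.93 relative to the median locus and 0.47 deposited. The 2 partners thus changed in opposite directions on the deposited scale.

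RPSA, a 40S protein that is also known as the laminin receptor, was at 1274, 1233 and 1138 FPKM in the controls, 869, 950.5 and 948 in H/R, and 1120.0, 1139 and 1059 in GA+H/R. RPL24 was at 1523, 1506 and 1413, then 1169.8, 1171 and 1161, then 1458, 1444 and 1482 FPKM, and RPL26 at 1812, 1807 and 1749.5, then 1363, 1331 and 1325, then 1659, 1686 and 1671. In all 3 genes every H/R library lay under every control and every GA+H/R library. Relative to the median locus RPSA, RPL24 and RPL26 rose in H/R by 1.06, 1.12 and 1.04, and on the deposited scale they fell by 0.40, 0.34 and 0.42. The named row of RPSA held only 29.5% of the control FPKM described as this protein. Its 26 unnamed copies summed to 2898, 2599 and 2899 FPKM on average in control, H/R and GA+H/R.

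The 4 tested paralogs had the 4 smallest changes of the family. Relative to the median locus their median was 0.27 in H/R against control, where 3 rose and 1 did not pass, and on the deposited scale all 4 fell, with a median of -1.02. RPS27L, a p53 target related to RPS27, was at 14.4, 17.3 and 15.6 FPKM in the controls, 4.57, 4.31 and 4.75 in H/R, and 4.79, 3.98 and 4.20 in GA+H/R. The controls lay above all other libraries, and H/R and GA+H/R overlapped. Its change was -0.29 ± 0.12 (SE, adjusted p = 0.0569) relative to the median locus, -1.59 on the deposited scale (adjusted p = 4.00e-07) and -0.37 (adjusted p = 0.0167) without control 1, when 61 members rose and 1 fell. RPS27 itself, named for this comparison after its values were seen, was at 0.99 relative to the median locus and -0.46 on the deposited scale.

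RPL22L1, the paralog of RPL22, was at 27.4, 28.3 and 27.9 FPKM in the controls, 11.1, 15.1 and 15.6 in H/R, and 13.3, 12.9 and 13.3 in GA+H/R. RPL7L1 was at 25.2, 22.3 and 19.7, then 10.7, 9.39 and 10.2, then 7.26, 7.89 and 7.68 FPKM, and RPL26L1 at 3.97, 3.77 and 3.99, then 1.68, 1.93 and 1.88, then 1.75, 1.91 and 1.98. Controls lay above H/R without overlap in all 3. Relative to the median locus their changes were 0.42, 0.29 and 0.26 (adjusted p = 0.0182, 0.0214 and 0.0448), while on the deposited scale they were -0.96, -1.07 and -0.80. At equal library totals none of these 3 was called, with changes of 0.15, 0.02 and 0.05 (adjusted p = 0.354, 0.892 and 0.704), nor under quantile normalization, with 0.30, 0.14 and 0.06 (adjusted p = 0.0741, 0.209 and 0.571). The call of RPL7L1 was also lost without control 3, H/R 1 or H/R 3, that of RPL22L1 without H/R 2 or H/R 3, and that of RPL26L1 without any one of the control or H/R libraries or GA+H/R 2, and with the replicate block (adjusted p = 0.0606).

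**Figure D3:**
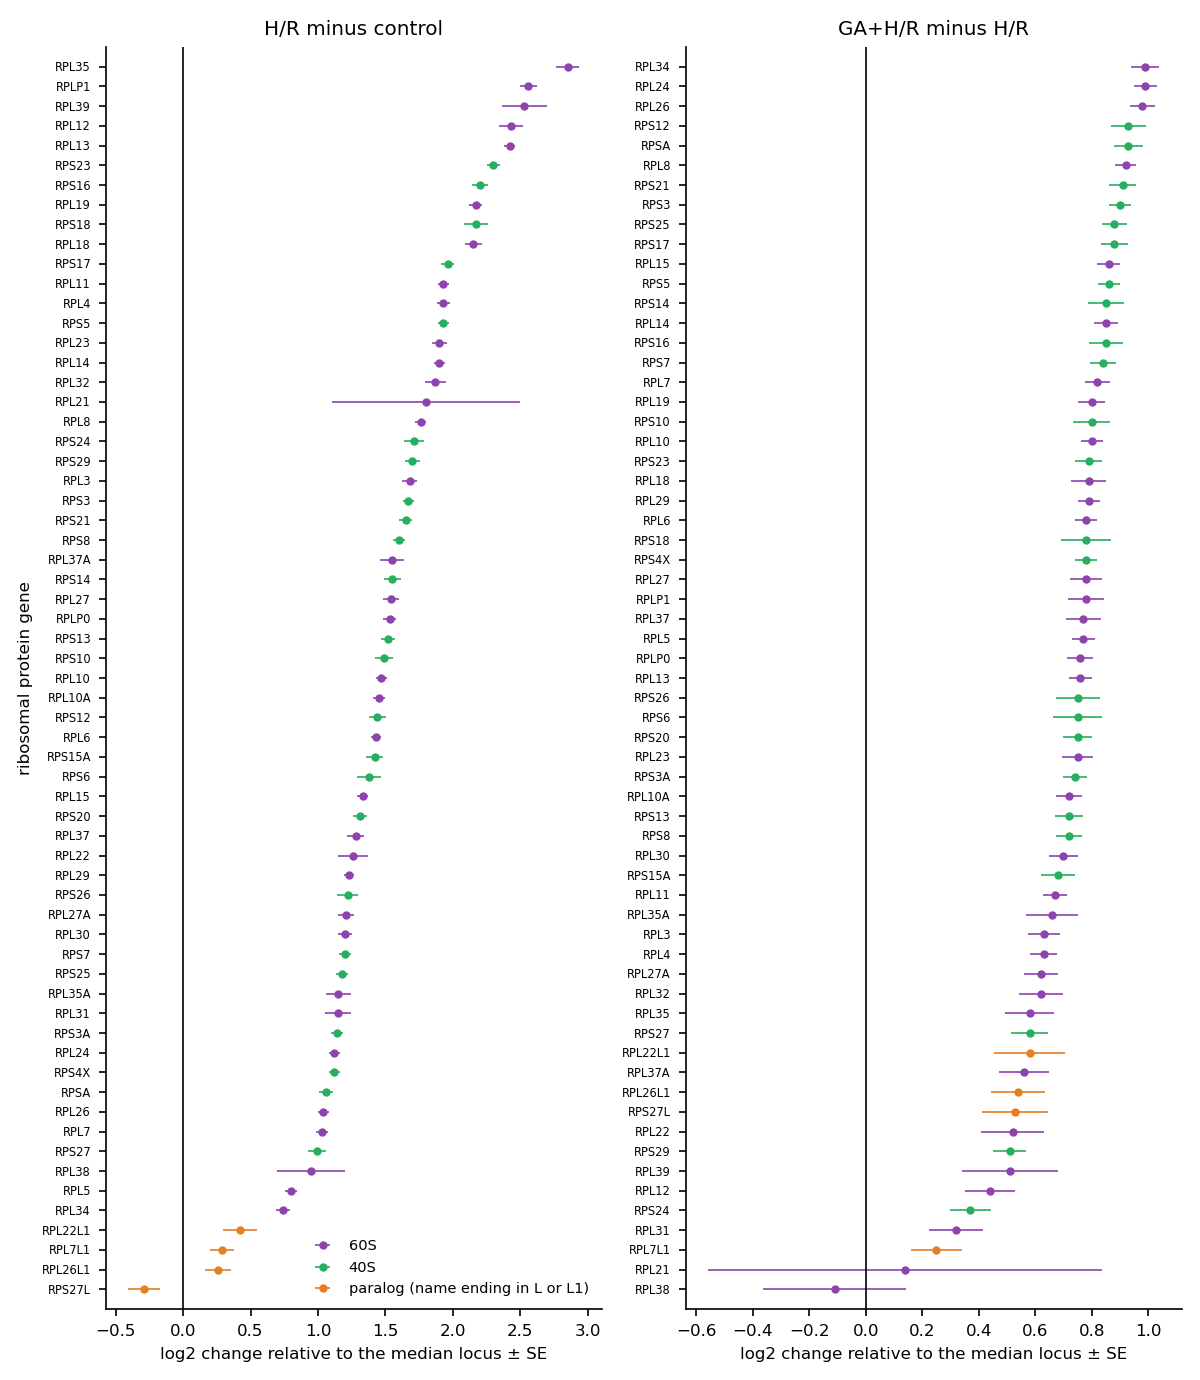
Points give the log2 change of the tested members except 1, relative to the median locus, with standard errors, ordered by size, in H/R against control (left) and GA+H/R against H/R (right). Purple marks 60S, green 40S and orange the paralogs. The orange points are the lowest 4 on the left, and RPL21 has the widest error on both sides.

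To describe which members moved more or less than the family, each library was also divided by the median member's ratio to the mean library, a scale chosen after the data were seen. On it 26 members were higher in H/R than in control, 23 were lower and 15 did not pass, while over all loci 3.88% were higher and 87.5% lower. The scale centres the members by construction. The balance of the member counts and their distance from all loci are therefore not results. RPL35 exceeded the median member by 1.41 ± 0.09 on the log2 scale (SE, adjusted p = 2.59e-07), RPL39 by 1.05, RPLP1 by 1.04, RPL12 by 0.90 and RPL13 by 0.89. All 4 tested paralogs lay under it, RPS27L at -1.66 ± 0.11 (adjusted p = 3.48e-07), RPL7L1 at -1.14, RPL22L1 at -1.03 and RPL26L1 at -0.86. Of the standard members, RPL34 lay under it at -0.78, RPL5 at -0.72, RPL26 at -0.49, RPSA at -0.47 and RPL24 at -0.41. RPLP0 was at 0.00 (adjusted p = 0.966), so the most abundant row moved with the median member. Across the 60 standard members the change relative to the median locus had a Spearman correlation of -0.08 with the mean FPKM. This describes genes measured in the same 9 libraries.

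**Figure D4:**
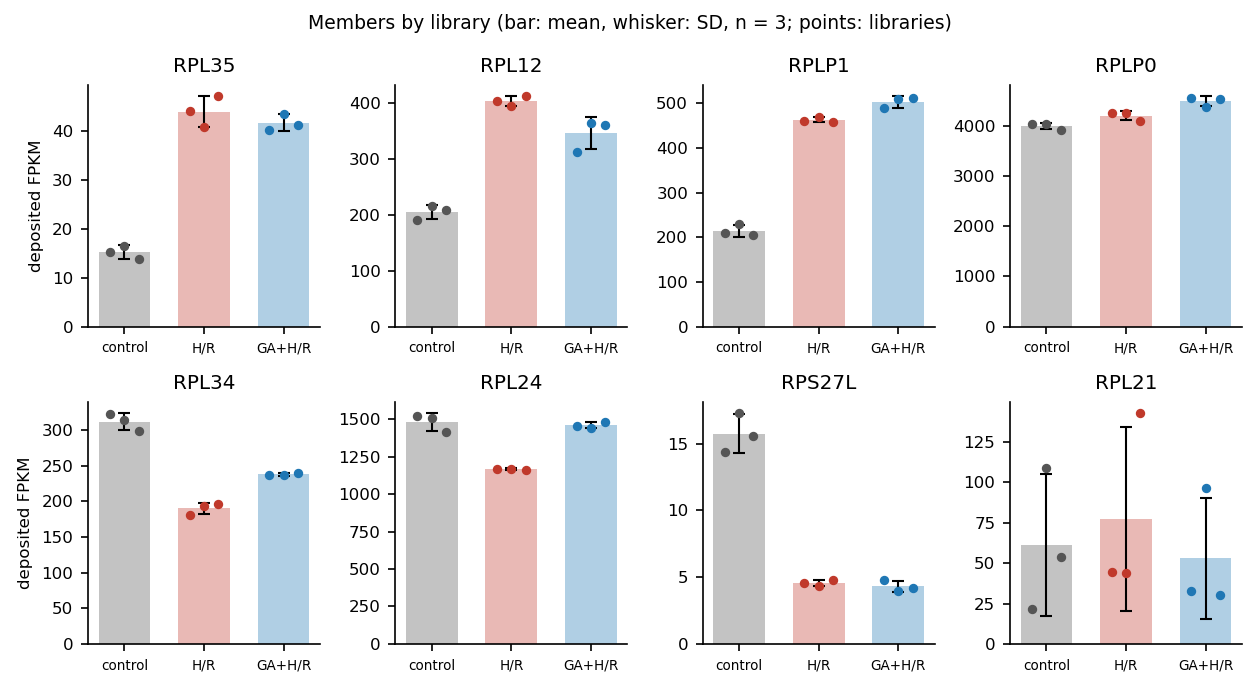
Deposited FPKM of 8 members by group (bars: mean; whiskers: SD, n = 3; points: libraries), each panel with its own axis from 0. RPL35, RPL12 and RPLP1 are higher in H/R than in control, RPL34, RPL24 and RPS27L are lower, and the points of RPL21 spread over the whole range in each group.

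RPL21, a 60S protein, could not be placed. It was at 21.4, 109 and 53.5 FPKM in the controls, 44.7, 43.7 and 143 in H/R, and 32.4, 96.1 and 30.1 in GA+H/R. The groups overlapped on the deposited scale, with a single high library in each (control 2, H/R 3 and GA+H/R 2). Relative to the median locus every H/R library of RPL21 lay above every control, and its change in H/R was 1.80 ± 0.70 (SE, adjusted p = 0.0522). In GA+H/R against control RPL21 rose by 1.94 ± 0.70 (SE, adjusted p = 0.0333), a call lost or reversed in 6 of 19 alternatives. The named row held only 9.81% of the control FPKM described as this protein, and LOC108175794, an unnamed row of the same description, was at 497 ± 14.9, 272 ± 20.5 and 316 ± 20.2 FPKM (SD, n = 3). With the named row and its 22 copies summed, the change in H/R was 0.92 (adjusted p = 1.58e-05).

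Gallic acid pretreatment was compared with H/R alone next, a comparison that shares the H/R libraries with the first. Relative to the median locus 61 of 64 members rose, 0 fell and 3 (RPL21, RPL38 and RPL7L1) did not pass, with a median of 0.76. Over all loci 18.7% rose and 15.2% fell. On the deposited scale 23 members rose, 4 fell and 37 did not pass, with a median of 0.10, against 1.69% and 64.3% of all loci. All GA+H/R libraries lay above all H/R libraries for 62 of 65 genes relative to the median locus. On the deposited scale they did so for 38, while 6 lay below and 21 overlapped. Again this was not counted over all loci. The members were closer to each other than in the first comparison: their SD across genes was 0.20 here and 0.58 in H/R against control, a description of the same genes.

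Both subunits rose again, 34 of 36 standard 60S members with a median of 0.76 and 24 of 24 standard 40S members with a median of 0.79 (0.10 and 0.12 on the deposited scale). Among the largest changes were those of RPL24 and RPL34, both at 0.99 (SE 0.04 and 0.05, adjusted p = 2.85e-06 and 4.34e-06), and RPL26 at 0.98. As deposited, these rose by 0.32 each. For RPL24, RPL26 and RPL34 the GA+H/R libraries lay above H/R, as given above, and for RPL24 they lay within the control range.

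RPLP0 and RPLP1 rose by 0.76 and 0.78, and were at 0.10 (called) and 0.12 (adjusted p = 0.0840) on the deposited scale. RPL12 rose by 0.44 ± 0.09 (SE, adjusted p = 0.00600) relative to the median locus and fell by 0.23 on the deposited scale, with every GA+H/R library under every H/R library in FPKM. RPL35 rose by 0.58 (-0.07 deposited). RPL31, a 60S protein at about 1 FPKM (0.998 ± 0.0977 in control, 1.62 ± 0.0424 in H/R, 1.37 ± 0.0742 in GA+H/R, SD, n = 3), was called at 0.32 (adjusted p = 0.0319), and RPL39 at 0.51 (adjusted p = 0.0477). The call of RPL39 was lost or reversed in 15 of 19 alternatives and that of RPL31 in 12 of 18, leave-one-out fits included. RPL38, a 60S protein, was at 1.03, 0.905 and 0.692 FPKM in the controls, 1.11, 1.92 and 0.822 in H/R, and 0.724, 1.05 and 0.379 in GA+H/R. These overlapping values near the filter gave a change of -0.11 ± 0.25 (SE, adjusted p = 0.757).

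Among the paralogs, RPL22L1, RPL26L1 and RPS27L rose by 0.58, 0.54 and 0.53, and were at -0.06, 0.02 and -0.06 on the deposited scale. RPL7L1 was at 0.25 (adjusted p = 0.0641), and fell by 0.36 on the deposited scale. Against the median member 12 genes were higher in GA+H/R than in H/R and 6 lower, while over all loci 1.17% were higher and 70.3% lower. Here too the scale centres the members by construction, so the distance of these counts from all loci is not a result. RPL24, RPL26 and RPL34 exceeded it by 0.23 each. RPL7L1 lay under it at -0.44 and RPL12 at -0.32. RPS24, a 40S protein named after its values were seen, lay under it at -0.38. These counts were sensitive to the libraries used: leaving out a single library gave 5 to 15 higher, with 5 to 7 without H/R 1, H/R 2, H/R 3, GA+H/R 1 or GA+H/R 2, and 4 to 10 lower, with 10 without control 1. Across the 60 standard members the change relative to the median locus had a Spearman correlation of 0.60 with mean FPKM. This describes genes of the same libraries, and the added pseudocount lowers the change of rows at a few FPKM.

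In GA+H/R against control, which shares libraries with both other comparisons, 63 members rose, 0 fell and 1 (RPS27L) did not pass, with a median of 2.19. Over all loci 33.7% rose and 35.5% fell. On the deposited scale 32 rose, 13 fell and 19 did not pass, with a median of 0.14, against 4.10% and 90.1% of all loci. The largest changes were those of RPL35 at 3.43, RPLP1 at 3.35 and RPL13 at 3.18, which were at 1.40, 1.23 and 1.06 deposited. The smallest were those of RPS27L at 0.23, RPL7L1 at 0.54, RPL26L1 at 0.80 and RPL38 at 0.83, which were at -1.65, -1.44, -0.77 and -0.14 deposited.

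Unnamed rows that the table describes as ribosomal proteins numbered 537, and 56 of the 65 members had at least 1 under the same name. Together these 537 rows summed to 12766 ± 543, 15139.5 ± 99.7 and 16937 ± 193 FPKM in control, H/R and GA+H/R (SD, n = 3). For 18 other protein names the table held such rows and no member of exactly that name. RPS4 is among these 18 because it lacks the X of the member RPS4X. The rows described as RPS4 were therefore not matched to RPS4X or summed with it. In control the named row held at least 90% of the FPKM under its description in 25 members and under 50% in 9, among them RPL37A (2.96%), RPL32 (4.34%) and RPS6 (6.70%), which were chosen after their values were seen. Near-identical copies can divide reads, so the level of such a row is not that of its protein's mRNA. Of 260 copies tested, 223 rose and 21 fell in H/R against control (median 1.44). In GA+H/R against H/R 208 rose and 3 fell (median 0.70). Over all loci 29.2% rose and 28.4% fell in the first comparison, and 18.7% and 15.2% in the second. As deposited, 145 of 247 rose and 61 fell in H/R (median 0.52), and 31 rose and 12 fell in GA+H/R against H/R (median 0.08). On that scale 4.18% of all loci rose and 86.0% fell in H/R, then 1.69% and 64.3% in GA+H/R against H/R. The 21 that fell in H/R became 9, 12 and 9 without control 1, 2 and 3, and the 3 that fell with gallic acid became 1 without control 2. Where RefSeq lists the copy as protein coding, 123 of 125 rose and 1 fell in H/R (median 1.66), and where it lists a pseudogene, 37 of 47 rose and 6 fell (median 1.37). Of these 6, the count was 1, 2 and 2 without control 1, 2 and 3. As deposited, 81 protein-coding copies rose and 15 fell, and 28 pseudogenes rose and 8 fell. With each named row and its copies summed, 63 members rose in H/R, 60 rose with gallic acid over H/R and 63 with gallic acid over control, and 0 fell. Shares over all loci were not counted in that fit. Without summing, 29.2%, 18.7% and 33.7% of all loci rose in these comparisons.

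Several of the proteins without a named row are abundant. The rows described as RPS2, a 40S protein, summed to 1090.4, 2321 and 2840 FPKM on average in control, H/R and GA+H/R, and those of RPL7A, a 60S protein, to 334, 653 and 684. Rows of RPL23A summed to 919.6, 753 and 798. Of the names without a member, 13 had a tested copy, RPS4 included. Over these 13 the median change of the copies ranged from 0.84 to 2.69 in H/R. In GA+H/R against H/R it ranged from 0.22 to 0.97.

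Other genes of translation were described from lists, and none was tested as a set. The counts of every list stand beside the shares over all loci. Relative to the median locus 29.2% rose and 28.4% fell in H/R, then 18.7% and 15.2% in GA+H/R against H/R. As deposited these shares were 4.18% and 86.0%, then 1.69% and 64.3%. Among the lists of translation genes, ribosome-associated genes had the highest median: in H/R against control 11 of 12 rose and 0 fell, with a median of 0.99, and all 12 rose in GA+H/R against H/R, with a median of 0.59. As deposited, 0 rose and 12 fell in H/R (median -0.40), and 3 rose and 4 fell in GA+H/R against H/R (median -0.04). Without control 1, 1 fell in H/R relative to the median locus. RACK1, a scaffold protein bound to the 40S subunit, was at 2874 ± 133, 2252 ± 27.03 and 2635 ± 41.0 FPKM (SD, n = 3) and rose by 1.11 and 0.89, against -0.35 and 0.23 deposited. BTF3, part of the nascent polypeptide-associated complex, rose by 1.23 and 0.99, against -0.22 and 0.32 deposited.

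Of 8 elongation and release factors, 5 rose and 0 fell in H/R (median 0.59), and 7 rose and 0 fell in GA+H/R against H/R (median 0.57). As deposited, 1 rose and 5 fell in the first (median -0.86), and 0 rose and 2 fell in the second (median -0.04). EEF1A1, which brings aminoacyl-tRNA to the ribosome, rose by 0.92 and 0.72 (-0.54 and 0.05 deposited), and EEF1G by 1.47 and 0.58 (0.01 and -0.08 deposited). Of 21 initiation factors, 16 rose and 4 fell in H/R (median 0.59), and 15 rose and 0 fell in GA+H/R against H/R (median 0.48). The 4 that fell became 2, 0 and 3 without control 1, 2 and 3, 1, 2 and 2 without H/R 1, 2 and 3, and 3 without any one GA+H/R library. As deposited, 0 rose and 20 fell in H/R (median -0.85), and 0 rose and 9 fell in GA+H/R against H/R (median -0.12). EIF3F, a subunit of the factor that loads the 40S subunit, rose by 1.16 and 0.80 (-0.30 and 0.14 deposited), whereas PABPC1, the poly(A)-binding protein, was at 0.08 and -0.08 (adjusted p = 0.187 and 0.228).

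Genes that make ribosomes had smaller medians. Of 39 assembly and snoRNP genes, 16 rose, 5 fell and 18 did not pass in H/R, with a median of 0.38, and 8 rose and 0 fell in GA+H/R against H/R, with a median of 0.09. As deposited, 1 rose and 32 fell of 38 (median -0.97), then 0 rose and 23 fell (median -0.41). Over all loci 86.0% and then 64.3% fell on that scale, so these deposited counts are near the background. Without control 1, 2 fell in GA+H/R against H/R relative to the median locus. MDN1, an ATPase that remodels the pre-60S particle, was at 0.01 in H/R (adjusted p = 0.928), and HEATR1, a factor for the pre-40S particle, fell by 0.56 (adjusted p = 0.00624). Of 20 genes of RNA polymerases I and III, which transcribe ribosomal RNA, 8 rose and 2 fell in H/R (median 0.12), and 5 rose and 1 fell in GA+H/R against H/R (median 0.12). The 2 that fell in H/R became 1 without any one control or H/R library, and the 1 in the second became 2 without GA+H/R 1 or 3. As deposited, 0 rose and all 20 fell in H/R (median -1.02), and 0 rose and 12 fell in the second (median -0.43). POLR1D, a subunit shared by both polymerases, rose in H/R relative to the median locus and fell by 0.45 on the deposited scale (adjusted p = 5.05e-05). It rose by 0.75 in GA+H/R against H/R (0.09 deposited, adjusted p = 0.195).

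Of 17 genes of mTOR and LARP1 control, 4 rose, 6 fell and 7 did not pass in H/R (median 0.09). In GA+H/R against H/R 4 rose and 3 fell (median -0.06). Over all loci 29.2% rose and 28.4% fell in the first and 18.7% and 15.2% in the second, so these counts are near the background. LARP1, outside the naming rule and chosen for its role, fell by 0.29 and 0.34 (adjusted p = 0.0233 and 0.0191). EIF4EBP1, a translational repressor, rose by 1.17 and 0.57 (-0.27 and -0.09 deposited), and EIF4EBP2 was at -0.01 and 0.05 (adjusted p = 0.929 and 0.746). MDM2, the partner of RPL5 and RPL11, fell by 0.32 in H/R and was at 0.01 in GA+H/R against H/R (adjusted p = 0.956). As deposited, 0 rose and 16 fell in H/R (median -1.34), and 0 rose and 13 fell in GA+H/R against H/R (median -0.65). In the latter, relative to the median locus, 2 rose without H/R 3, and 1 fell without H/R 1 or H/R 2.

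Mitochondrial ribosomal proteins, which belong to a separate ribosome, rose in 46 of 62 and fell in 2 in H/R (median 0.69), and rose in 29 and fell in 1 in GA+H/R against H/R (median 0.35). The 29 became 19 without H/R 2 and 16 without H/R 3, and the 2 that fell in H/R became 0 without H/R 1 and 1 without control 2, control 3, H/R 2 or H/R 3. The 1 that fell with gallic acid was lost without control 2, control 3, GA+H/R 1 or any H/R library. As deposited, 6 of 61 rose and 36 fell in H/R (median -0.45), and 0 rose and 18 fell in GA+H/R against H/R (median -0.19). MRPL37 rose by 1.28 and 0.68 (-0.17 and 0.02 deposited). Lists of short and long mRNAs moved apart in the same comparisons. Of 39 short mRNAs of other function, 37 rose and 0 fell in H/R (median 1.08), and 21 rose and 0 fell in GA+H/R against H/R (median 0.38). Of 33 long housekeeping mRNAs, 0 rose and 26 fell in H/R (median -0.47), and 0 rose and 24 fell in GA+H/R against H/R (median -0.57). Without control 1, 1 long mRNA rose in each comparison. As deposited, 9 short mRNAs rose and 14 fell in H/R (median -0.18), 1 rose and 15 fell in GA+H/R against H/R (median -0.23), and all 33 long mRNAs fell in both (medians -1.90 and -1.18). FTL, the ferritin light chain, rose by 2.41 in H/R (0.95 deposited), close to RPL13 at 2.42, and AHNAK, a very long mRNA, fell by 0.88. The part of transcript length in the members' changes was not tested.

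**Figure D5:**
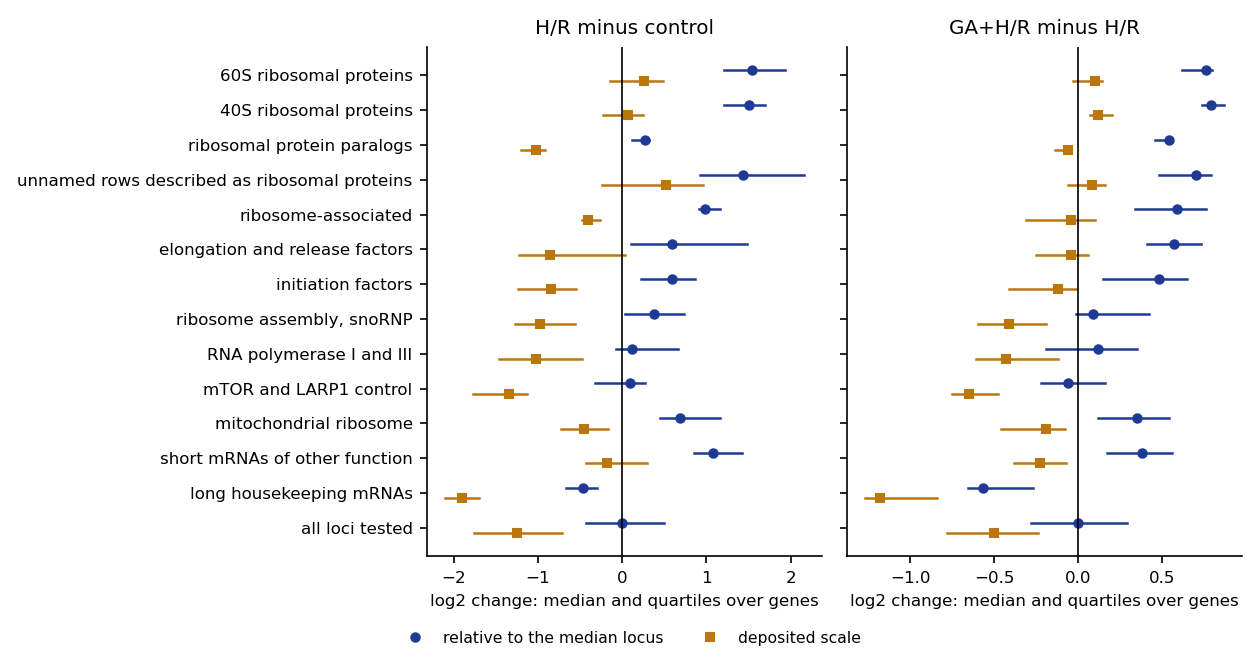
Median (point) and quartiles (line) of the log2 changes over the genes of each list, relative to the median locus (blue circles) and on the deposited scale (orange squares), in H/R against control (left) and GA+H/R against H/R (right). The 60S and 40S proteins have medians of 1.54 and 1.51 on the left, short mRNAs of other function 1.08, and long housekeeping mRNAs -0.47.

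The authors' deposited table also marks loci as significant in a single test across the 3 groups. By the authors' deposited table, 45 of the 65 members (69.2%) and 10917 of all 19511 loci (56.0%) were so marked. That test names no pair of groups.

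The identity of the rows was checked against RefSeq (assembly mOryCun1.1), by names only. Transcripts of 56 members were found there, and 3 of these (RPL18, RPL22 and RPS21) carried an unnamed locus symbol. In 10 members the table's description names no ribosomal protein, among them RPL19, RPL31, RPLP1, RPS16 and RPS23. Except for RPL19, the RefSeq transcripts of these 10 carry the same symbol as the row. No transcript of RPL19 was found there, so its identity rests on the row's name.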

How the data were processed

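FPKM per locus were deposited by the authors in one table with a column for each of the 9 libraries, per the file headers. The table also holds a p-value and a q-value per locus from a test across the 3 groups, as deposited by the authors. The submitters' processing notes name the mouse builds GRCm38 and mm10, although the transcripts are those of rabbit; the aligner and quantifier are not given in the sources used here. Coordinates are therefore not printed. No counts were given, so depth is unknown and precision rests on the spread between 3 libraries.

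To put the libraries on the scale of the median locus, a factor was taken for each, its median ratio to the mean of the 9 libraries over the 8448 loci that reached 1 FPKM in every library. Loci entered the test where 3 or more libraries reached a scaled FPKM of 1. The log2 of scaled FPKM plus a pseudocount of 1 was modelled by group with limma 3.58.1 (R 4.3.3), using all 9 libraries and a robust, trended eBayes step. Two-sided p-values were adjusted by the Benjamini and Hochberg method across the loci tested. A fold change on this scale understates that of low rows. Tables were made with pandas 2.3.3 in Python 3.11.15. The fit was also run on simulated data with known shifts. Those data held no change of scale between libraries, so the run does not test the choice of scale.

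The members and the 13 lists were chosen with earlier results of these data known. Members given in full were the 6 largest and 6 smallest changes in H/R against control, the 4 largest and 4 smallest in each other comparison, the stalk proteins, RPSA, the paralogs, the 3 of highest mean FPKM and any that failed the filter; 1 of these members is counted but not reported by name here. From each list up to 4 tested members of highest mean were allowed. Fibroblast, macrophage and parathyroid markers are given as sums; 3 of the 8 erythroid markers were in the table, with sums of at most 0.195 FPKM. Same-numbered libraries did not deviate together (correlations from -0.0177 to 0.0261), so the numbers were not used as pairs.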

Additional observations from a re-analysis of the deposited data

How the results depend on the processing

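The direction of the family rests on the scale between libraries. With FPKM as deposited, 27 members rose and 22 fell in H/R against control (median 0.08). The numbers were 23 and 4 for GA+H/R against H/R (0.10), and 32 and 13 for GA+H/R against control (0.14). At equal library totals the medians were 1.19, 0.68 and 1.82, and under quantile normalization they were 1.56 and 0.58 in the first and second comparison. A pseudocount of 0.1 gave 2.26 in the last. In H/R against control 1 member, RPS27L, fell at equal totals, under quantile normalization and with eBayes without trend or robust settings. Leaving out a single library gave 59 to 62, 59 to 61 and 61 to 63 members that rose, and 0 to 1 that fell in the first comparison. With the replicate block 62, 59 and 63 rose. Against the median member, leaving out a library gave 23 to 27 higher and 22 to 24 lower in H/R. For GA+H/R against H/R it gave 5 to 15 higher and 4 to 10 lower. There, 5 were higher with eBayes without trend or robust settings, and with the replicate block 8 were higher and 6 lower.

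Of the 64 tested members, 26, 17 and 26 were above 0 relative to the median locus and under 0 as deposited in the first, second and last comparison. List medians and members given in full that turned sign this way follow; other members and single list genes are not listed. For the first comparison they were the paralogs at -1.02, assembly -0.97, polymerases -1.02, initiation -0.85, elongation -0.86, ribosome-associated -0.40, mTOR and LARP1 -1.34, mitochondrial ribosome -0.45 and short mRNAs -0.18, with RPL5 -0.65, RPL7L1 -1.07, RPL22L1 -0.96, RPL24 -0.34, RPL26 -0.42, RPL26L1 -0.80, RPL34 -0.71 and RPSA -0.40. For the second they were the paralogs at -0.06, assembly -0.41, polymerases -0.43, initiation -0.12, elongation -0.04, ribosome-associated -0.04, mitochondrial ribosome -0.19 and short mRNAs -0.23, with RPL7L1 -0.36, RPL12 -0.23, RPL21 -0.51, RPL22L1 -0.06, RPL31 -0.14, RPL35 -0.07, RPL39 -0.15 and RPS27L -0.06. For the last they were the paralogs at -1.23, assembly -1.41, polymerases -1.47, initiation -0.95, elongation -0.83, ribosome-associated -0.43, mitochondrial ribosome -0.62 and short mRNAs -0.47, with RPL5 -0.54, RPL7L1 -1.44, RPL21 -0.13, RPL22L1 -1.02, RPL24 -0.02, RPL26 -0.10, RPL26L1 -0.77, RPL34 -0.39, RPL38 -0.14, RPS27L -1.65 and RPSA -0.13.

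At equal totals the polymerases were at -0.15 (H/R) and -0.10 (GA+H/R, both against control), mTOR and LARP1 at -0.20 (H/R against control) and RPS27L at -0.10 (GA+H/R against control). The mTOR and LARP1 median in H/R was -0.06 under quantile normalization and -0.10 with a mean FPKM of at least 5, with a range from -0.09 to 0.01 for GA+H/R against H/R when a single library was left out (0.01 without H/R 3). Within that comparison, leaving out a library moved RPL21 between -0.39 (without GA+H/R 2) and 0.70 (without H/R 3), with -0.12 and -0.15 without H/R 1 and H/R 2, and RPL38 between -0.33 (without GA+H/R 2) and 0.13 (without GA+H/R 3), with 0.11 without H/R 2. RPL38 was at 0.10 with copies summed. The cause was not tested. Depth is unknown, so its limit on rows near 1 FPKM, such as RPL31 and RPL38, could not be given. The median member scale and the summed copies were chosen after seeing the data.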
